A study of Mus musculus with 25 samples.

Results

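The 9 genes described here encode the enzymes that turn farnesyl diphosphate into squalene and squalene into cholesterol: Fdft1, Sqle, Lss, Cyp51, Msmo1, Nsdhl, Ebp, Sc5d and Dhcr7. They were found by matching the Ensembl identifiers of the deposited table to these symbols, and all 9 were among its 16220 genes. RNA was sequenced from dorsal root ganglia, which house the cell bodies of sensory neurons and their glia, of 25 BXD strains. BXD strains are inbred mouse lines derived from crosses of C57BL6/J with DBA2/J, so each line is fixed for a mosaic of both parental genomes. The mice were 8 weeks old and carried no labelled transgene or treatment. The strain names ended in TyJ for 16 strains (BXD1, BXD2, BXD5, BXD6, BXD9, BXD11, BXD13, BXD14, BXD15, BXD16, BXD21, BXD28, BXD34, BXD36, BXD40 and BXD42) and in RwwJ for 9 (BXD44, BXD48, BXD55, BXD60, BXD68, BXD73, BXD77, BXD87 and BXD89). Each strain had 1 library, so every spread between strains holds genotype, animal, dissection and library together.

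Schwann cells make much of the cholesterol of their myelin themselves, and neurons need it for the membranes of axons and vesicles. When sterols in the endoplasmic reticulum run low, SCAP carries SREBP proteins to the Golgi, where a pair of proteases releases the part that switches on the genes of the pathway. INSIG proteins hold SCAP back when sterols are plentiful.

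The deposited values were normalized read counts, rounded, and are called scaled counts. That they had been scaled to the same upper quartile in every library was inferred from the values. Reads counted to the genes of the deposited table numbered an estimated 19970000 to 40150000 per library. The estimate came from the step between low values in the 24 libraries where that step was clear (not BXD36). Counting error made up between 0.77% and 6.67% of the variance of a member's log2 values between strains, the highest share being that of Ebp. All 7 pan-neuronal markers (Tubb3, Prph, Uchl1, Snap25, Stmn2, Rbfox3 and Avil) were above 0 in every library. Markers of other tissues were present too: the summed level of 4 skeletal muscle markers ran from 189 to 22800 and that of 4 spinal cord markers from 23 to 6336. In such bulk tissue, fewer cells of a type and less RNA per cell cannot be told apart. BXD36, BXD40 and BXD21 stood apart with the highest totals of scaled counts (26860283, 26611472 and 26552291, against 24637919 to 26118679 in the others), and the results they moved most are given with and without them.

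Promoter sequence is shown for 4 members: Cyp51 and Sc5d, whose values fell into separate levels, and Msmo1 and Nsdhl. Nsdhl varied with Fdft1, Sqle and Dhcr7 across strains. Msmo1 varied with Fdft1 and Ebp, which rested on BXD21, BXD36 and BXD40. Of the 9 genes, 7 had an entry in the RefSeq promoter table (mouse GRCm38.p6), and Fdft1 and Sqle had none. Each line gives the 250 bases before the annotated start, 5′ to 3′ on the gene's strand. Capitals mark the letters CCAAT, which the factor NF-Y binds, and GGGCGG, the GC box that Sp1-type factors bind. Both strands were searched, so CCAAT on the opposite strand reads as ATTGG and GGGCGG as CCGCCC.
Cyp51, chr5:4104698-4104947, minus strand: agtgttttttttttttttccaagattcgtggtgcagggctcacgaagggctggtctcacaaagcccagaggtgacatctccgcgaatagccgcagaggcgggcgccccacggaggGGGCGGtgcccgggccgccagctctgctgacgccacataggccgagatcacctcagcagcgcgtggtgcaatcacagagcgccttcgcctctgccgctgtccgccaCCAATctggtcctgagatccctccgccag
Sc5d, chr9:42264301-42264550, minus strand: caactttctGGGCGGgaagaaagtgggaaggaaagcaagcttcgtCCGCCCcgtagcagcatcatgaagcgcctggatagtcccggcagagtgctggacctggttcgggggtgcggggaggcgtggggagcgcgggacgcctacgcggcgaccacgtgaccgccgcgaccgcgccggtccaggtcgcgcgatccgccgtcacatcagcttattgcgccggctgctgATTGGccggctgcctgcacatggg
Msmo1, chr8:64733579-64733828, minus strand: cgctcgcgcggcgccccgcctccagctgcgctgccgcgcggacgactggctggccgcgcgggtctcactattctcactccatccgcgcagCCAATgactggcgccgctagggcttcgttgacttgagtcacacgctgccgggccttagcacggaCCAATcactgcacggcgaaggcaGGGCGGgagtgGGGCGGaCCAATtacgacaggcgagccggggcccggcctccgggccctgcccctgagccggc
Nsdhl, chrX:72918271-72918520, plus strand: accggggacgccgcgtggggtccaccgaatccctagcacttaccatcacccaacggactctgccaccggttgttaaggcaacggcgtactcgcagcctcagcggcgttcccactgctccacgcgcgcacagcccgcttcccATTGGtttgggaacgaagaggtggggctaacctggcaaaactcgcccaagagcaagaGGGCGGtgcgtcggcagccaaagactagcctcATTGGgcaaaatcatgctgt
In the Msmo1 window CCAAT occurred 3 times, in that of Nsdhl 2 times on the opposite strand, and in those of Cyp51 and Sc5d once, 29 and 24 bases before the start. All 7 matched members held CCAAT and GGGCGG in at least 1 promoter, for Dhcr7 with 3 listed promoters. Among 32851 promoters, 33.8% held CCAAT and 32.7% held GGGCGG on either strand. The letters TCACNCCAC, a form of the sterol regulatory element, were in none of the 7 and in 1.05% of all promoters. None of these motifs contains another. A match describes letters in this window and shows no binding.

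All 9 genes were well measured, and their levels differed more between genes than between strains. Fdft1, or squalene synthase, which joins farnesyl diphosphate into squalene and commits it to sterols, had 6866 scaled counts in its lowest strain, a median of 8227 and 10780 in its highest. Sqle, squalene epoxidase, a rate-limiting enzyme, ran from 4704 over 5672 to 7152. Lss, which closes oxidosqualene into lanosterol, ran from 1140 over 1506 to 2235. Thus the first step spanned 1.57-fold between strains, the second 1.52-fold and the ring closure 1.96-fold, the widest of the 9.

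Of the enzymes that strip methyl groups from lanosterol, Cyp51, the lanosterol demethylase, ran from 2111 over a median of 2617 to 4097. Msmo1, the methylsterol oxidase, ran from 4550 over 5242 to 7850, and its partner Nsdhl, a sterol dehydrogenase encoded on the X chromosome, from 1707 over 2285 to 3094. Of the last steps, Ebp, the sterol isomerase, also on the X chromosome, ran from 958 over 1190 to 1569. Sc5d, the sterol desaturase, ran from 1765 over 2123 to 3149, and Dhcr7, the reductase that makes cholesterol from dehydrocholesterol, from 1810 over 2293 to 3186. The SD of the log2 values lay between 0.16 (Fdft1) and 0.30 (Cyp51), with a median of 0.23 over the members against 0.25 over 16152 genes, those whose mean reached 10 scaled counts and which were tested throughout.

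**Figure D1:**
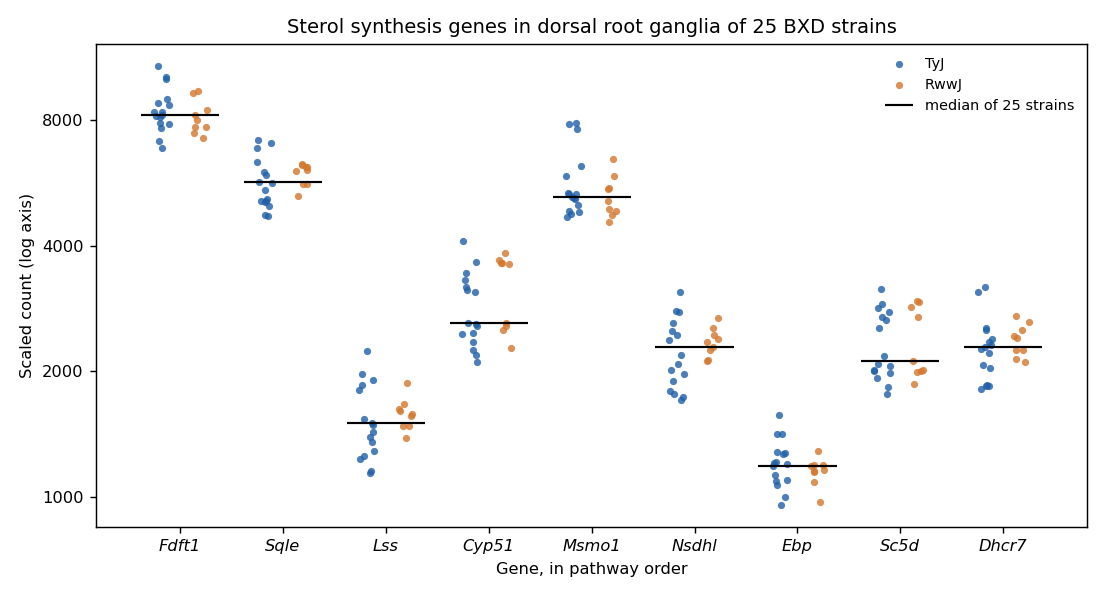
Scaled counts of the 9 genes (log axis) in pathway order, with 1 point per strain, TyJ in blue and RwwJ in orange, and a bar at the median of the 25 strains. Fdft1 lies highest (median 8227) and Ebp lowest (1190), the colours overlap for every gene, and Cyp51 and Sc5d show a gap between a lower and an upper set of strains.

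Levels of different genes were compared as scaled counts per kilobase of merged exons, a length that counts every annotated exon. On this scale Fdft1 was highest with 1981 ± 228 (SD, n = 25), followed by Sqle (1042 ± 122), Msmo1 (902 ± 156), Nsdhl (798 ± 128), Cyp51 (669 ± 138), Ebp (516 ± 60.3), Sc5d (484 ± 90.5), Dhcr7 (399 ± 60.1) and Lss (144 ± 25.2). Fdft1 was above Sqle, and Dhcr7 above Lss, in 25 of 25 strains with no overlap of their ranges. Between the other neighbours in this order the ranges overlapped, and the gene of higher mean was the higher in 16 to 21 of 25 strains. Lss has 10787 bases of merged exons, the longest of the 9, so its place depends on how much of that length its transcripts use. The library kit did not mark the strand. Fdft1 overlaps Ctsb, Cyp51 overlaps Akap9 and Lss overlaps the antisense gene 4930483K19Rik, each on the opposite strand, so the counts of these 3 members are less certain than the rest.

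High and low values of several enzymes fell in the same strains. BXD40 was the highest strain for Fdft1, Msmo1, Ebp and Dhcr7, and among the highest 5 for 6 of the 9 genes. BXD21 was highest for Cyp51 and Nsdhl and among the highest 5 for 7 genes. BXD13 was highest for Sqle and Sc5d, and BXD16 for Lss. At the other end, BXD1 was lowest for Sqle and Lss, BXD15 was lowest for Fdft1 and Nsdhl, and BXD42 was among the lowest 5 for 6 genes. No strain was at the top or the bottom for all 9.

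The TyJ and RwwJ strains had overlapping values for every one of the 9 enzymes. Cyp51, which differed most, ran from 2111 over a median of 2602.5 to 4097 in TyJ and from 2277 over 3606 to 3832 in RwwJ. Its mean log2 value was 0.15 ± 0.12 (SE) higher in RwwJ (limma p = 0.215, Benjamini-Hochberg adjusted p = 0.530 over all genes). Msmo1 lay furthest the other way, with 4686, 5276.5 and 7850 in TyJ against 4550, 5114 and 6445 in RwwJ and a log2 difference of -0.10 ± 0.09 (limma adjusted p = 0.601). The 3 highest Msmo1 values all belonged to TyJ strains, BXD40, BXD21 and BXD36.

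For the remaining members the log2 difference, RwwJ minus TyJ, was -0.05 for Fdft1, 0.07 for Sqle, 0.07 for Lss, 0.10 for Nsdhl, -0.06 for Ebp, 0.03 for Sc5d and 0.07 for Dhcr7, with SEs of 0.07 to 0.11. None of the 9 passed limma at an adjusted p of 0.05, and none had an unadjusted p below 0.05. A test that permuted rank sums called none either. Over all 16152 genes limma called 0%, with 2440 genes at an unadjusted p below 0.05 (2251 by rank-sum permutation). The missing calls do not show that the groups were alike. Without BXD21, BXD36 and BXD40 the differences of Fdft1, Msmo1 and Ebp changed sign, to 0.01, 0.01 and 0.0039. Those of Cyp51, Nsdhl, Dhcr7 and Sqle were larger there, at 0.19, 0.19, 0.15 and 0.13, and those of Lss and Sc5d smaller, at 0.04 and 0.0061. None of the 9 was called. With the Schwann cell, muscle, erythroid and spinal cord marker scores as covariates, Sc5d and Dhcr7 changed sign, to -0.10 and -0.03.

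Of 27 other genes of the pathway and its control, none was called between the groups. The one at an unadjusted p below 0.05 was Abca1, a cholesterol exporter, with a log2 difference of 0.28 ± 0.11 (limma adjusted p = 0.296).

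Cyp51 and Sc5d divided the strains into separate levels. A gene was called at separate levels where, after splitting its 25 ordered log2 values into a lower and an upper side of at least 5 strains, at least 0.80 of the sum of squares lay between the sides. This is a description, with no test. It applied to 2 of the 9 members, where 4.74% of all genes were called. For Cyp51 the share was 0.855, with 13 strains at 2111 to 2617 and 12 at 3093 to 4097, a gap of 1.18-fold between the highest lower and the lowest upper strain. For Sc5d it was 0.907, with 14 strains at 1765 to 2177 and 11 at 2539 to 3149, a gap of 1.17-fold. The strains nearest the Cyp51 gap were BXD48 (2617) and BXD14 (3093), and those nearest the Sc5d gap BXD40 (2177) and BXD21 (2539).

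The other 7 enzymes had shares from 0.569 (Ebp) to 0.748 (Msmo1). Msmo1 came nearest, with 5 strains at 6193 to 7850 above 20 at 4550 to 5869, a gap of 1.06-fold. Both sides of Cyp51 and of Sc5d held strains of both groups: the upper side had 7 TyJ and 5 RwwJ strains for Cyp51, and 7 TyJ and 4 RwwJ strains for Sc5d. The genes divided the strains differently. Both were low in 7 strains and both high in 5 (BXD13, BXD15, BXD21, BXD34 and BXD77), while 6 strains had low Cyp51 with high Sc5d and 7 had high Cyp51 with low Sc5d.

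**Figure D2:**
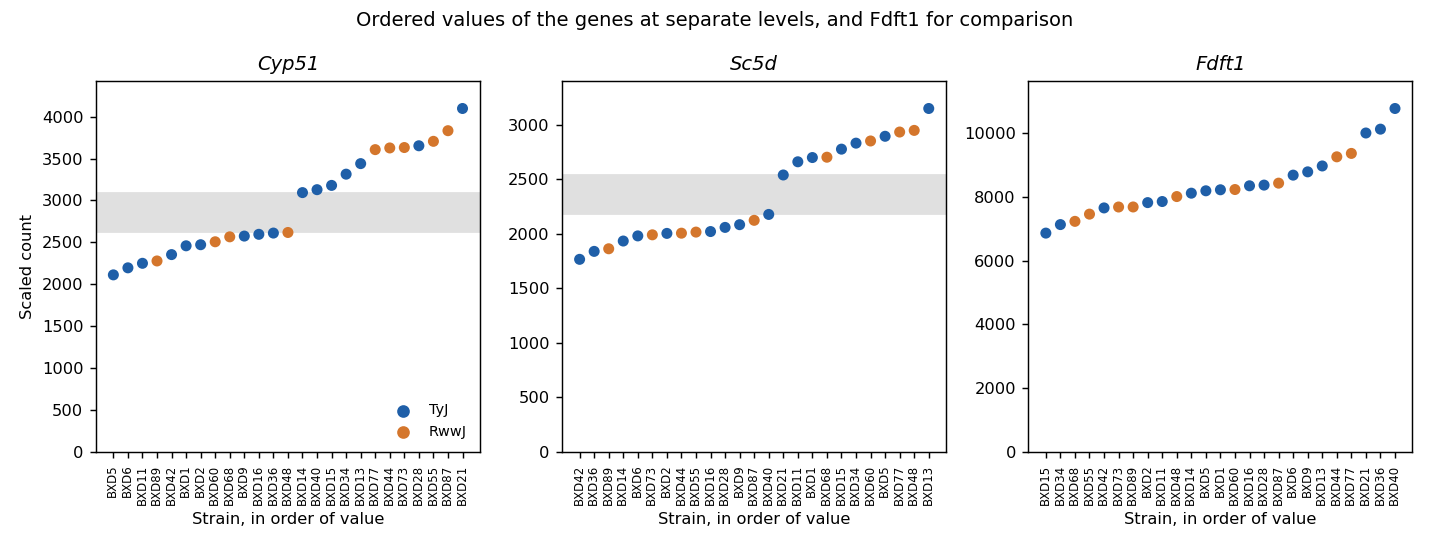
Scaled counts of Cyp51, Sc5d and Fdft1 in the 25 strains, each gene in its own order of strains, TyJ in blue and RwwJ in orange, with the gap between the sides in grey. Cyp51 has no value between 2617 and 3093 and Sc5d none between 2177 and 2539, while Fdft1 rises with no such gap.

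Without BXD21, BXD36 and BXD40 both genes were still called, as they were without any single strain. Neither was called once the scores of myelinating Schwann cell, skeletal muscle, erythroid and spinal cord markers were regressed out of the log2 values. The shares were then 0.707 for Cyp51 and 0.767 for Sc5d, and 3.22% of all genes were called. Of the 27 other pathway genes, 1 was called.

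Genes beside Sc5d on chromosome 9 divided the strains in part the same way. Its neighbour Tecta, which encodes a protein of the inner ear's tectorial membrane, placed 24 of 25 strains on the same side as Sc5d. Tecta had 42 to 101 scaled counts in the strains of low Sc5d and 91 to 259 in those of high Sc5d, and its own share of 0.779 was just short of a call. Ubash3b, the third gene on the other side, placed 21 strains alike (4239 to 5873 against 4960 to 9022) and was itself at separate levels, as was Grik4, a kainate receptor gene, which placed only 16 alike. Tbcel and Sorl1 placed 17 and 15 alike, and 3110039I08Rik placed 21 on opposite sides. A gene with no relation would still place at least 13 of 25 strains alike in one direction or the other.

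Over the whole genome, the genes at separate levels that matched Sc5d best were Gm13410 on chromosome 2, which was high where Sc5d was low in 24 of 25 strains, A530032D15Rik on chromosome 1 (23 strains, same direction) and Olfr920, an olfactory receptor gene on chromosome 9 (22 strains, same direction). Gm13410 is a low-count gene, with 0 to 1 scaled counts in its lower strains and 7 to 31 in its upper ones.

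No gene beside Cyp51 on chromosome 5 followed it closely. Its 6 expressed neighbours, Krit1, Mterf1a, Akap9, Mterf1b, Fzd1 and Cdk14, divided 13 to 18 of 25 strains like Cyp51 or, for Akap9 and Mterf1b, opposite to it, and none was at separate levels. Akap9, whose gene overlaps that of Cyp51, had 1071 to 1919 scaled counts where Cyp51 was low and 972 to 2089 where it was high, with 14 strains on the opposite side. The best matches elsewhere were Cdk5rap1 on chromosome 2 with 21 strains, Gm11223 on chromosome 4 with 20 and Pofut1 on chromosome 2 with 20, all in the same direction. Genotypes were not analysed here, so no locus is assigned to either gene.

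The other 7 enzymes varied by degrees, and several rose and fell together over the 25 strains. A pair was called where limma, with either gene as the predictor of every other gene, gave an adjusted p below 0.05 both ways. Of 21 pairs 8 were called, all with positive r. With Fdft1, Sqle, Lss, Msmo1, Nsdhl, Ebp and Dhcr7 as the predictor, limma called 12.2%, 8.56%, 12%, 27.7%, 8.28%, 29.2% and 6.95% of all genes in either direction, and 5.61%, 2.98%, 4.47%, 13.9%, 2.83%, 14.9% and 2.29% in the positive one. Calls with Msmo1 and Ebp thus came against the widest backgrounds. Fdft1 took part in 4 of the 8 pairs, Sqle and Nsdhl in 3 each, Msmo1, Ebp and Dhcr7 in 2 each, and Lss in none.

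Sqle and Dhcr7, an early and the last enzyme, had the highest correlation. Their Pearson r was 0.82 and Spearman rho 0.82, each with a permutation p of 1e-05, the smallest that 100000 permutations can give (limma adjusted p = 0.00138, the larger of both fits). Without BXD13 and BXD21, the strains farthest from the median of Sqle, r was 0.80. It was 0.84 among TyJ and 0.60 among RwwJ strains, and 0.75 without BXD21, BXD36 and BXD40. Strains of low Sqle, such as BXD1 (4704 Sqle, 1842 Dhcr7) and BXD15 (4977 and 1840), had low Dhcr7, and BXD21 (7031 and 3099) and BXD40 (6855 and 3186) had high values of both.

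Sqle and Nsdhl followed with r = 0.78 (rho 0.73, permutation p 1e-05 and 5e-05, limma adjusted p = 0.00171), 0.76 without BXD13 and BXD21, 0.79 in TyJ, 0.58 in RwwJ and 0.71 without BXD21, BXD36 and BXD40. Fdft1 and Nsdhl had r = 0.73 (rho 0.71, permutation p 5e-05 and 0.00011, limma adjusted p = 0.00329). This r was 0.67 without BXD40 and BXD36, 0.86 in TyJ, 0.50 in RwwJ and 0.57 without BXD21, BXD36 and BXD40. All 3 pairs thus kept positive coefficients in the 22 remaining strains and within each group.

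Pairs with Msmo1 rested on 3 strains. Fdft1 and Msmo1 had r = 0.63 (rho 0.50, permutation p 0.00089 and 0.0115, limma adjusted p = 0.0105), but 0.38 without BXD40 and BXD36 and 0.07 without BXD21 as well. Msmo1 and Ebp had r = 0.65 (rho 0.34, permutation p 0.0005 and 0.101, limma adjusted p = 0.00394), 0.40 without BXD40 and BXD21 and 0.14 without BXD36 as well. BXD21, BXD36 and BXD40 held the 3 highest values of Msmo1 (7816, 7605 and 7850), Fdft1 (10010, 10131 and 10780) and Ebp (1419, 1415 and 1569).

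The remaining called pairs lay between these. Fdft1 and Sqle had r = 0.64 (rho 0.60, permutation p 0.00045 and 0.00189), Fdft1 and Ebp 0.72 (rho 0.53, 0.0001 and 0.00711), and Nsdhl and Dhcr7 0.65 (rho 0.61, 0.00041 and 0.00144). Leaving out the 2 farthest strains gave 0.61, 0.54 and 0.52. In the 22 strains without BXD21, BXD36 and BXD40 they were 0.52, 0.41 and 0.51. All 8 called pairs had a lower r there, and limma called 3 pairs: Sqle with Nsdhl, Sqle with Dhcr7, and Sqle with Lss (r = 0.58 there, 0.40 in all strains). In these 22 strains limma called 26.7% of all genes with Sqle, 21.9% with Dhcr7, 8.62% with Lss and 1.29% with Nsdhl as the predictor. With Fdft1, Ebp and Msmo1 it called 0.33%, 0.012% and 0%, so the backgrounds had changed as well.

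**Figure D3:**
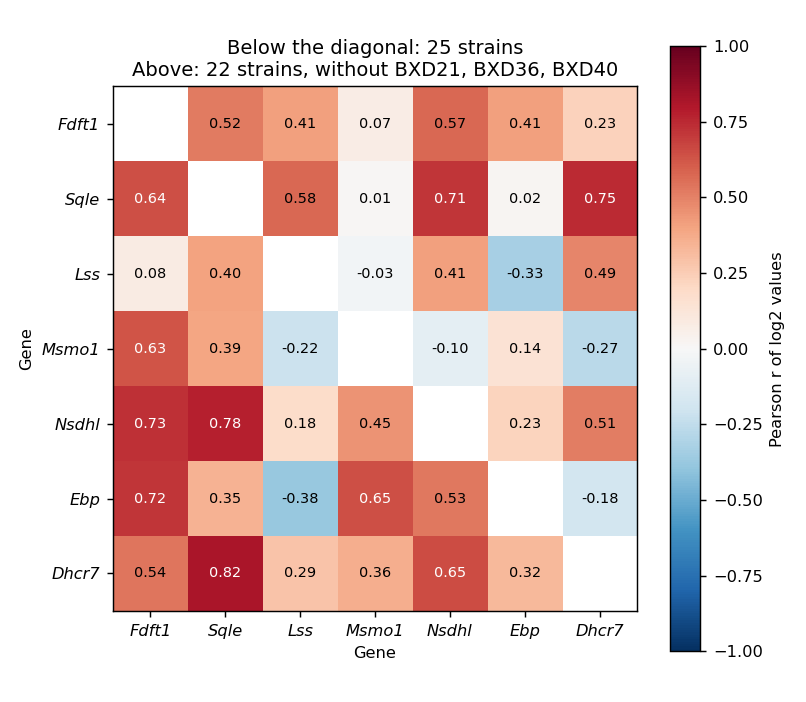
Pearson r between the log2 values of the 7 enzymes not at separate levels, over 25 strains below the diagonal and over the 22 strains without BXD21, BXD36 and BXD40 above it. Sqle with Dhcr7 stays high (0.82 and 0.75), Fdft1 with Msmo1 drops from 0.63 to 0.07, and Lss with Ebp is negative in both (-0.38 and -0.33).

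Lss stood outside the called pairs when all 25 strains were used. Its r with Ebp was -0.38 (rho -0.41, permutation p 0.06 and 0.0436, limma adjusted p = 0.175), and with Fdft1, Nsdhl and Dhcr7 it was 0.08, 0.18 and 0.29. With Sqle it was 0.40 (rho 0.49, permutation p 0.0444 and 0.0141, limma adjusted p = 0.178). Without BXD21, BXD36 and BXD40 the r of Lss was 0.58 with Sqle, 0.49 with Dhcr7, and 0.41 with Fdft1 and with Nsdhl. It was -0.33 with Ebp and -0.03 with Msmo1 there. BXD16, the highest strain for Lss (2235), was near the median for Fdft1 (8352) and among the low strains for Ebp (1003). BXD36 had nearly the lowest Lss (1153) with the second highest Fdft1.

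In the RwwJ strains some pairs pointed the other way. Ebp and Dhcr7 had r = -0.84 in RwwJ against 0.57 in TyJ, Msmo1 and Dhcr7 -0.66 against 0.60, and Nsdhl and Dhcr7 -0.15 against 0.74. A limma test of the difference in slope, added after these values were seen, called 0 genes for any of the 7 predictors after adjustment, with 342 to 1752 genes at an unadjusted p below 0.05. For the slope of Ebp on Dhcr7 the unadjusted p was 0.00866 (adjusted 0.401). Of 42 slopes between members (21 pairs, each in both directions), 7 had an unadjusted p below 0.05, and 6 of the 7 involved Dhcr7.

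**Figure D4:**
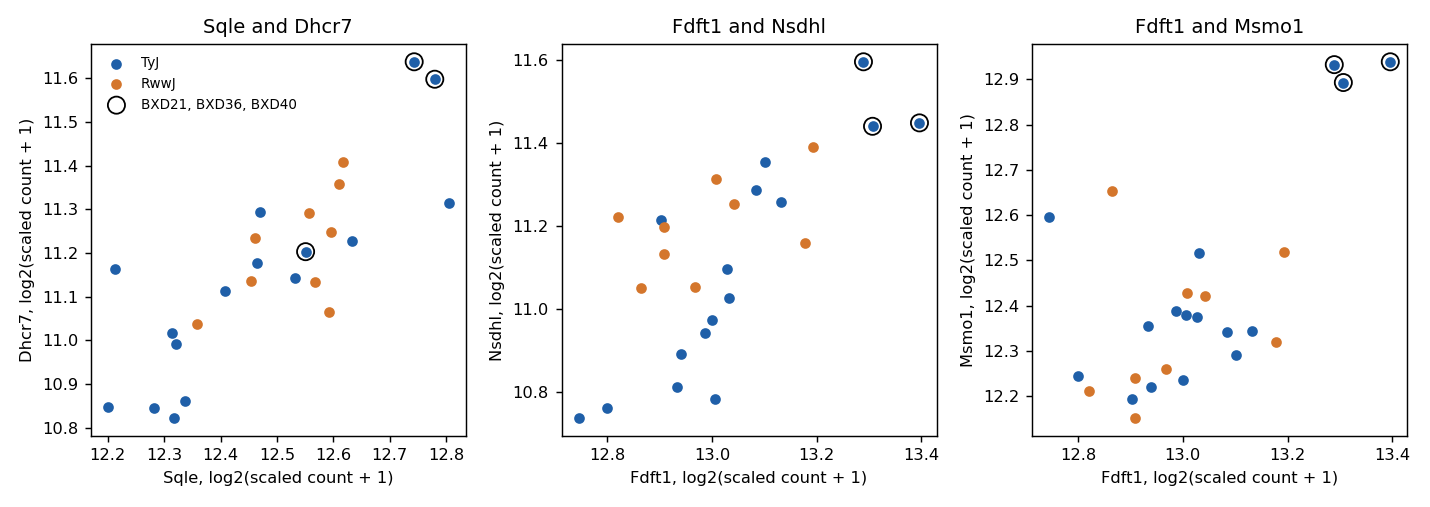
log2(scaled count + 1) of 3 pairs of enzymes, with 1 point per strain, TyJ in blue, RwwJ in orange and BXD21, BXD36 and BXD40 circled. Sqle and Dhcr7 (r = 0.82) and Fdft1 and Nsdhl (0.73) rise together along the whole range, while for Fdft1 and Msmo1 (0.63) the circled strains stand alone at the upper right.

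The levels of several enzymes moved with those of cell type markers and with the total of scaled counts. A marker score was the mean log2 value over a list, and 84 relations of 7 enzymes with 10 scores, the total and the estimated depth were computed. Their p-values were adjusted over these 84 alone. No share of all genes is given beside them, so they do not set the enzymes apart from other genes. The pan-neuronal score rose with Sqle (r = 0.78, rho 0.79, permutation p 1e-05 for both, adjusted 0.00084), Nsdhl (0.71, rho 0.72, adjusted p 0.00189), Dhcr7 (0.69, rho 0.72, adjusted p 0.00204) and Fdft1 (0.60, rho 0.54, adjusted p 0.0105). Without BXD55 and BXD21, the extremes of the score, r was 0.76, 0.69, 0.64 and 0.50. The summed level of the 7 neuronal markers ran from 261404 to 379550, the highest value being that of BXD21. By the pan-neuronal score BXD21, BXD40 and BXD36 ranked 1, 2 and 4 of the 25 strains, and by the satellite glia score 5, 3 and 4. The part of neurons and glia in the values of these strains was not tested.

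Sqle fell as the fibroblast (r = -0.64, rho -0.61) and endothelial and mural scores (-0.64, rho -0.60) rose, with permutation p of 0.00048 and 0.00057 and adjusted p of 0.00504 and 0.00532. Lss went against the fibroblast (-0.60, rho -0.60) and erythroid scores (-0.68, rho -0.62), with adjusted p of 0.0105 and 0.00204. Ebp and Fdft1 rose with the satellite glia score. For Ebp r was 0.70 (rho 0.70, permutation p 0.00017 and 0.00019, adjusted 0.00204) and for Fdft1 0.53 (rho 0.41, permutation p 0.00608 and 0.0415, adjusted 0.0319), with 0.76 and 0.69 when BXD48 and BXD11 were left out. Dhcr7 fell as the myelinating Schwann cell score rose (-0.51, rho -0.51, adjusted p 0.0414). It fell likewise as the fibroblast (-0.52, rho -0.48, adjusted p 0.0414) and endothelial and mural scores rose (-0.56, rho -0.60, adjusted p 0.022). Nsdhl also went against the endothelial and mural score (-0.55, rho -0.42, adjusted p 0.0254). None of the 7 had a positive relation with the Schwann cell score at an adjusted p below 0.05. The total of scaled counts rose with Fdft1 (0.77), Ebp (0.77), Msmo1 (0.62) and Nsdhl (0.60), and without BXD36 and BXD40 with r of 0.64, 0.64, 0.34 and 0.49. None of the 7 had an adjusted p below 0.05 with the estimated depth.

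With the pan-neuronal score as a covariate, 2 of the 8 pairs were still called, Fdft1 with Ebp and Msmo1 with Ebp. In that fit limma called 31.2% of all genes with Ebp, 31% with Msmo1, 16.8% with Lss and 7.93% with Fdft1 as the predictor. It called 0 of all genes with Sqle, Nsdhl or Dhcr7 as the predictor, with 1090, 1202 and 1011 genes at an unadjusted p below 0.05. With the total of scaled counts as a covariate, Sqle with Dhcr7 was still called and Sqle with Lss was added. With that covariate limma called 16.7% of all genes with Sqle, 4.82% with Msmo1, 4.64% with Dhcr7 and 3.64% with Lss as the predictor. It called 3 genes with Fdft1, 1 with Nsdhl and 0 with Ebp (1460, 3449 and 1537 at an unadjusted p below 0.05). Both alternatives, and the one without the 3 strains, were added after the values were seen. With the Schwann cell, muscle, erythroid and spinal cord scores as covariates 9 pairs were called, 7 of them among the 8. The share of all genes called there ran from 0% (Lss) to 29.6% (Msmo1).

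For Cyp51 and Sc5d no r over all strains is given, since it would be set by their levels. Within levels, 42 relations were computed, those of 1 other pathway gene included, and none had an adjusted p below 0.05. Sc5d and Dhcr7 had r = 0.63 (rho 0.47, permutation p 0.0164 and 0.0943, adjusted 0.344) among the 14 strains of low Sc5d and -0.17 among the 11 of high Sc5d. Sc5d and Lss had r = 0.61 (rho 0.71, permutation p 0.0431 and 0.018, adjusted 0.476) on the upper side and 0.52 on the lower. Without BXD21 and BXD13 the upper value was 0.73, and without BXD42 and BXD36 the lower was 0.18. With all strains of a side, Cyp51 was not above 0.51 with any enzyme, the highest being Nsdhl on the upper side. Low values on the upper side depended on BXD14 and BXD40, the strains farthest from the median of Cyp51 there. Without them r was 0.81 with Nsdhl, 0.73 with Dhcr7, 0.68 with Fdft1, 0.62 with Ebp and 0.60 with Sqle. It was 0.50 with Msmo1 and 0.27 with Lss. These values carry no test.

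Enzymes of the mevalonate steps, which make farnesyl diphosphate from acetyl-CoA, rose with most members. Of 26 other pathway genes not at separate levels, limma called 11 with Sqle (9 positive), 10 with Msmo1 (7), 10 with Ebp (7), 9 with Fdft1 (6), 8 with Nsdhl (5), 7 with Dhcr7 (6) and 7 with Lss (6), against the shares of all genes given with the pairs. In the negative direction alone these shares were 6.64% for Fdft1, 5.58% for Sqle, 7.56% for Lss, 13.8% for Msmo1, 5.45% for Nsdhl, 14.3% for Ebp and 4.66% for Dhcr7. The called relations were 62 of 182. The count was 31 on ranks, 34 with the pan-neuronal score and 25 with the total of scaled counts as a covariate, 41 in the TyJ strains alone, 30 without BXD21, BXD36 and BXD40, and 37 without BXD21 alone. Over all genes the median share called with the 7 predictors, 12% for the 62, was lower there too. In the same order it was 5.51%, 7.93%, 3.64%, 7.17%, 1.29% and 6.13%. In the 62 the permutation p of r was at most 0.014 and that of rho at most 0.481, for Apoe with Msmo1, and r kept its sign without the 2 strains farthest from the predictor's median. Of the 7 mevalonate genes, 5 were called with Fdft1, with Sqle and with Ebp, 4 with Msmo1 and with Nsdhl, 2 with Dhcr7 and 1 with Lss, all positive. Hmgcs1 was not analysed here.

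Fdps, which makes the farnesyl diphosphate that Fdft1 consumes, had r = 0.92 with Fdft1 (rho 0.90, both permutation p 1e-05, limma adjusted p = 3.23e-06), and 0.91 without BXD21, BXD36 and BXD40. Fdps ran from 3600 to 6028 scaled counts. Acat2, which condenses acetyl-CoA, had r = 0.88 with Fdft1 (0.84 without those strains) and was called with all members tested but Lss. Its r with Msmo1, Ebp and Dhcr7 was 0.57, 0.60 and 0.59, and 0.16, 0.30 and 0.30 without those strains. Mvd, which makes isopentenyl diphosphate, had 0.83 with Fdft1 and 0.79 with Sqle (0.78 and 0.71 without them). Idi1, its isomerase, was called with Fdft1, Msmo1 and Ebp (0.60, 0.63 and 0.55), with 0.54, 0.51 and 0.42 without them.

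Hsd17b7, a ketosteroid reductase of the same demethylation steps as Nsdhl, was called with Sqle (r = 0.66, rho 0.71) and Lss (0.72, rho 0.71), and had 0.83 and 0.69 without BXD21, BXD36 and BXD40. Lbr, the lamin B receptor, a sterol reductase of the nuclear envelope, fell as Sqle rose (-0.61, and -0.76 without the 3 strains), while Tm7sf2, the other gene for that reduction, rose with Msmo1 (0.59) and Dhcr7 (0.56), at 0.32 and 0.28 without those strains.

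Among the regulators, Insig1, itself a target of SREBP, was called with Sqle (r = 0.67), Dhcr7 (0.65), Lss (0.60) and Nsdhl (0.56), and had 0.60, 0.55, 0.73 and 0.51 without BXD21, BXD36 and BXD40. Srebf2, which encodes the SREBP that drives sterol genes, was called with Lss alone (0.66, rho 0.69, limma adjusted p = 0.0195). Its r with Dhcr7 was 0.58 (rho 0.69, limma adjusted p = 0.0536), just short of a call, and with Sqle 0.52 (rho 0.61, limma adjusted p = 0.0881). Mbtps2, a protease that releases SREBP, was called in the positive direction with Lss alone (0.64), while it fell as Msmo1 rose (-0.57, and -0.29 without those strains). Mbtps1, the other protease, fell as Fdft1 (-0.83), Ebp (-0.73) and Nsdhl (-0.65) rose, with -0.64, -0.45 and -0.41 without them. Srebf1, Scap and Insig2 were called with none of the 7.

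Of the genes of uptake and export, Lrp1, a large receptor that takes up apolipoprotein E particles, fell as 6 of the 7 members rose, Lss being the exception, with r from -0.80 (Fdft1) to -0.60 (Msmo1). Without BXD21, BXD36 and BXD40 the r of Lrp1 was 0.16 with Msmo1, -0.20 with Ebp and between -0.59 and -0.43 with the other 4. Apoe, the lipid carrier and also 1 of the 6 satellite glia markers, rose with Ebp (0.83), Fdft1 (0.68) and Msmo1 (0.59), and had 0.70, 0.31 and -0.16 without those strains. Npc1 and Npc2, which pass cholesterol out of lysosomes, went opposite ways with Lss (0.61 and -0.60), and Npc2 rose with Ebp (0.68, and 0.52 without those strains). Soat1, which esterifies cholesterol, fell as Fdft1 rose (-0.63, and -0.37 without them), and Abcg1, an exporter, rose with Sqle and with Dhcr7 (0.59 for both).

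**Figure D5:**
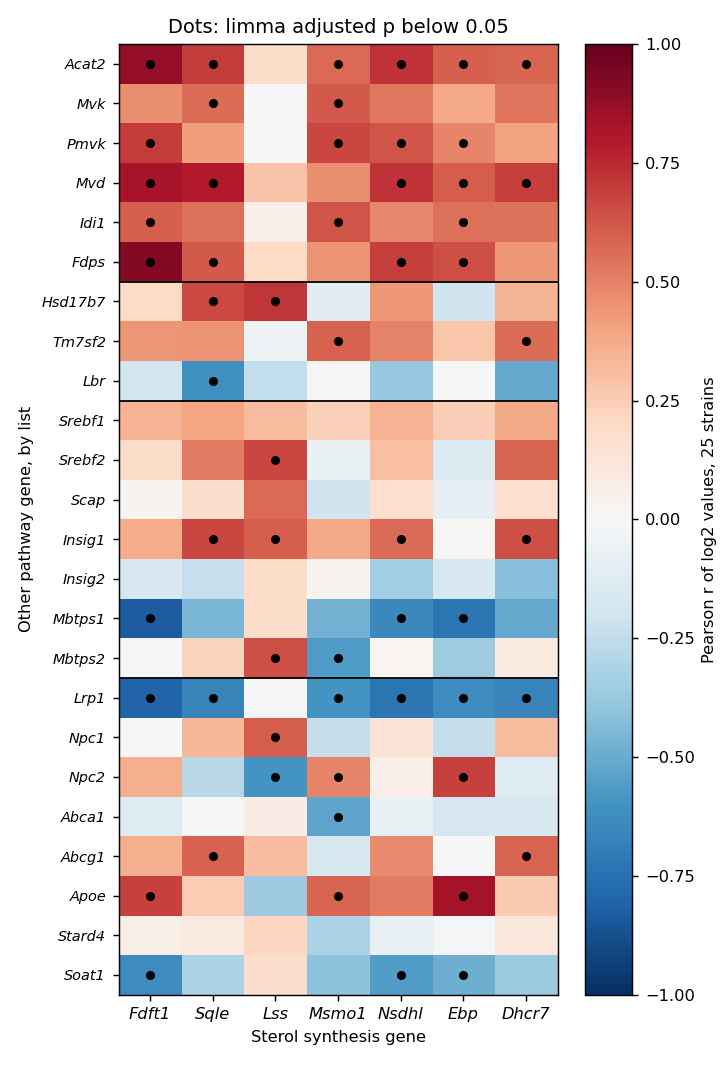
Pearson r over 25 strains between 7 sterol synthesis enzymes (columns) and 24 of the other pathway genes (rows, with lines between mevalonate steps, other late steps, regulators, and uptake and efflux), with a dot where limma's adjusted p was below 0.05. The mevalonate rows are red in every column but that of Lss, which has its dots at Hsd17b7, Srebf2, Insig1, Mbtps2, Npc1 and Npc2.

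Over all genes, the 3 whose pattern was most like each enzyme, by Pearson r over the 25 strains, included further lipid genes. For Fdft1 they were Fdps, Acat2 and D6Wsu163e (0.92, 0.88 and 0.84). For Sqle they were Acly, which makes cytosolic acetyl-CoA (0.89), Mettl13 (0.89) and Aacs, which makes acetoacetyl-CoA (0.88), and these kept 0.87, 0.88 and 0.85 without BXD21, BXD36 and BXD40. For Ebp they were Tmem97, which encodes the sigma-2 receptor, a sterol-responsive membrane protein (0.92), Adk (0.84) and Puf60 (0.84).

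For Nsdhl the most alike were Rufy2, Atp6v1a and Gars (0.84, 0.83 and 0.81), for Dhcr7 Gga2, Vps18 and Hgs, genes of endosomal sorting (0.84, 0.82 and 0.82), and for Lss Fbxl16, Clcn6 and Hira (0.80, 0.79 and 0.79). Those of Msmo1 were Dimt1, Prkra and Calca, the gene of the neuropeptide CGRP (0.89, 0.88 and 0.87). Without BXD21, BXD36 and BXD40 the values for Msmo1 were 0.55, 0.59 and 0.52, while those for Lss were 0.80, 0.80 and 0.75. These values were chosen as the highest of 16151 genes and carry no test.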

How the data were processed

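RNA from dorsal root ganglia of 25 BXD strains (1 library each) had been extracted with Trizol and prepared with an unstranded Illumina TruSeq kit, per the labels' protocols. CASAVA 1.8.0, TopHat2 2.0.9 and HTSeq, with NCBIM37 and mm9, are named per the submitters' processing notes. The values deposited by the authors are a score: normalized read counts in whole numbers (upper quartile 1478 to 1478.25 in every library, totals 24637919 to 26860283). Scaling to a common upper quartile was inferred from these values. The scaling tool is not given in the sources used here. No count model was fitted.

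Symbols came from GENCODE for 15697 of 16220 identifiers, a later build, so no gene coordinates are given beside the promoters' own. Tests used log2(scaled count + 1) for 16152 genes with a mean of at least 10, limma 3.58.1 (R 4.3.3, trended prior, two-sided, Benjamini-Hochberg over all genes, 0.05) and 100000 two-sided permutations (Python 3.11.15, numpy 2.4.6). limma and the splits were tested on simulated data. p-values measure the spread between single libraries. The members, gene lists and comparisons were chosen with earlier results of these data known. Named genes were the members, a few other pathway genes (Idi1, Srebf2 and Insig1 among them) and any called gene, the 3 genes most like each member, and 3 expressed neighbours on either side of members at separate levels. Other genes are named to complete a count. Some genes of the lists stand in the counts and are not reported here. Alternatives were another pseudocount (10), other filters and cuts, equal totals, cell type covariates, ranks, each group's term or TyJ alone, and each strain left out. Those added after seeing the data were the pan-neuronal and total covariates, leaving out BXD21, BXD36 and BXD40, and the slope difference.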

Additional observations from a re-analysis of the deposited data

Results flagged for a closer look

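None of the 9 sterol synthesis genes had a strain that stood far from the rest of the RwwJ group. Among 36 genes examined in these 9 strains, 3 other pathway genes had a highest strain whose gap to the next was large against the whole range: Lbr with 604 scaled counts in BXD55 (next 497), Srebf1 with 2429 in BXD89 (next 2101) and Lrp1 with 8740 in BXD55 (next 6312). Chance alone gives such a gap in about 1 in 20 groups. The 16 TyJ strains were too many for this check.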

How the results depend on the processing

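Between RwwJ and TyJ no member and no other pathway gene was called under any alternative run. Single log2 differences changed sign: Sc5d (-0.097) and Dhcr7 (-0.028) with cell type covariates, Fdft1 (0.011), Msmo1 (0.012) and Ebp (0.0039) without BXD21, BXD36 and BXD40, and Sc5d without BXD48 (-0.015), BXD60 (-0.00942) or BXD77 (-0.015), within -0.015 to 0.067 over single strains left out. Members at separate levels numbered 0 with cell type covariates and 2 in every other alternative. Of other pathway genes the count was 0 with these covariates, with equal totals and at a cut of 0.85, 5 at a cut of 0.75, 2 without BXD21, BXD36 and BXD40, and 1 to 2 with a strain left out (2 without BXD1). Called pairs, 8 in all strains, numbered 2 on ranks, 2 with the pan-neuronal covariate, 2 with the total covariate (1 of the 8 and 1 new), 3 without the 3 strains (2 of the 8 and 1 new), and 6 to 10 with a strain left out (6 without BXD21). Called relations with other pathway genes, 62 in all strains, numbered 31 on ranks, 41 in TyJ alone, 34 with the pan-neuronal and 25 with the total covariate, 30 without the 3 strains, and 37 to 64 with a strain left out (37 without BXD21). The median share of all genes called over the 7 predictors was 12% in all strains. It was 5.51% on ranks, 7.17% in TyJ alone, 7.93% with the pan-neuronal and 3.64% with the total covariate. Without the 3 strains it was 1.29%, and without BXD21 alone 6.13%. Fewer strains were fitted in TyJ alone and without the 3 strains. The cause of these changes in count was not tested. Depth was no limit for any member, with counting error below 6.7% of the variance. With 9 RwwJ strains, SEs of 0.067 to 0.12 limit the group comparison.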
